A study of Rattus norvegicus with 8 samples.

Results

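Collagens are the proteins of the extracellular matrix whose chains wind together into a triple helix, and each chain has its own gene. The rows named Col, a type number, a and a chain number were taken from the gene count table of a rat vein graft study, which gave 44 collagen chain genes among 37209 named rows. Total RNA of 4 graft veins and 4 control veins was sequenced, all from rats of the Sprague Dawley (SD) strain, an outbred stock, and all taken 1 week after surgery. For the graft, the left common carotid artery was divided and its ends were turned over short cuffs, so that the vein placed there lay in the path of arterial flow. As control served the animal's own jugular vein from the opposite side, and no allele or drug is named for either group. Age and sex are not given in the labels used here, and a whole vein was the sample, so wall cells, blood-borne cells and attached tissue were read together. In such bulk samples fewer cells of a type and less RNA per cell cannot be told apart.

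The families differ in the structures they build. Fibrillar collagens (types I, II, III, V, XI, XXIV and XXVII) form the load-bearing fibrils, in which types I and III are the bulk of a vessel wall and types V and XI start fibrils and limit their width. Basement membrane collagen (type IV) forms the sheet under endothelium and around each smooth muscle cell. FACIT collagens (fibril-associated collagens with interrupted triple helices) sit on the surface of fibrils, network collagens (types VIII and X) form open lattices, type VI forms beaded filaments beside basement membranes, multiplexins (types XV and XVIII) lie in basement membrane zones, and transmembrane collagens are anchored in cell surfaces.

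Total counts per library ran from 5981520 (control 4) to 16061189 (graft 1), and 3 counts stood for 0.187 to 0.502 counts per 1e6 (CPM). Levels are given as CPM on library sizes scaled by TMM factors, which correct for a few genes taking up a large share of reads, and they are not divided by gene length, so levels are compared between libraries and not between genes. A gene was called at a Benjamini-Hochberg adjusted p under 0.05 in edgeR's quasi-likelihood test over the 15464 genes that passed its low-count filter, written below as edgeR adjusted p. Controls 3 and 4 had the highest levels of adipocyte markers (9 of 9 adipocyte markers fell in the grafts, with summed levels of 577, 832, 2055 and 2519 CPM across controls 1 to 4, against 158 to 218 CPM in the grafts) and of Schwann cell markers (summed levels of 283, 371, 3277 and 3058 CPM in controls 1 to 4). The counts of collagen genes that rose or fell, over all and by family, are therefore also given without them. A protocol in the labels names a brain region as the tissue, while the other labels name veins. Macrophage markers rose (7 of 8), from 216 to 364 CPM to 1017 to 1602 CPM in sum, and their part in the results was not tested. Skeletal muscle markers summed to 53.4, 40.5, 1444 and 207 CPM across controls 1 to 4, against 689, 38.6, 370 and 897 CPM across grafts 1 to 4. Mesothelial markers summed to 1.20 to 7.95 CPM in the controls and 51.8 to 81.0 CPM in the grafts. The part of both was not tested. Of 10 brain markers 7 did not reach the count filter, 2 missed the threshold and Stmn2 rose from 3.27 to 23.4 CPM (a log2 change of 2.85, SE 0.48, edgeR adjusted p of 0.00136), whereas the 8 smooth muscle markers summed to 13079.9 to 21663 CPM in the controls.

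Collagen genes moved in both directions, and most of them moved. Of the 44 genes 39 were tested, of which 17 rose in the grafts, 13 fell and 9 missed the threshold. Over all genes tested 42.3% were called, 21% higher and 21.3% lower, against 76.9% of the tested collagen genes, 43.6% higher and 33.3% lower. The 2 groups of libraries were fully apart for 21 of the 39, against 40.6% of all genes tested, with every graft above every control for 11 (20.8% of all genes) and below for 10 (19.8% of all genes). The median log2 fold change of the 39 was 0.55, against 0.01 over all genes tested, and the range ran from -3.09 to 4.39. A change of at least 2 on the log2 scale was called upward in 7 members (17.9%, against 6.52% of all genes) and downward in 7 (17.9%, against 4.16% of all genes). With controls 3 and 4 both left out, 12 rose and 9 fell of 41 tested (15.4% and 13.7% of all genes). Of these, 9 rose and 5 fell by at least 2 on the log2 scale (7.15% and 4.02% of all genes), and every graft lay above the other 2 controls for 16 members and below them for 11 (26.3% and 24.3% of all genes). By family, without those controls, 4 fibrillar genes rose and 2 fell, 1 basement membrane gene rose and 3 fell, 2 FACIT genes rose and 2 fell, 1 beaded filament gene rose and 1 fell, 3 network genes and 1 multiplexin gene rose, no transmembrane gene was called and Col28a1 fell. These counts without controls 3 and 4 by family, by size and by overlap were added after the values were seen. Of the 30 called members, 16 kept their call in each of 15 other settings, which were other scalings, filters and tests, a block on the replicate number and fits with 1 or 2 libraries left out. These 16 were 9 that rose (Col5a3, Col8a1, Col8a2, Col9a2, Col11a1, Col12a1, Col18a1, Col24a1 and Col27a1) and 7 that fell (Col4a3, Col4a4, Col4a5, Col6a6, Col14a1, Col19a1 and Col28a1). None of the 30 changed direction in these settings. The plot of fold changes shows each tested gene by family.

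**Figure D1:**
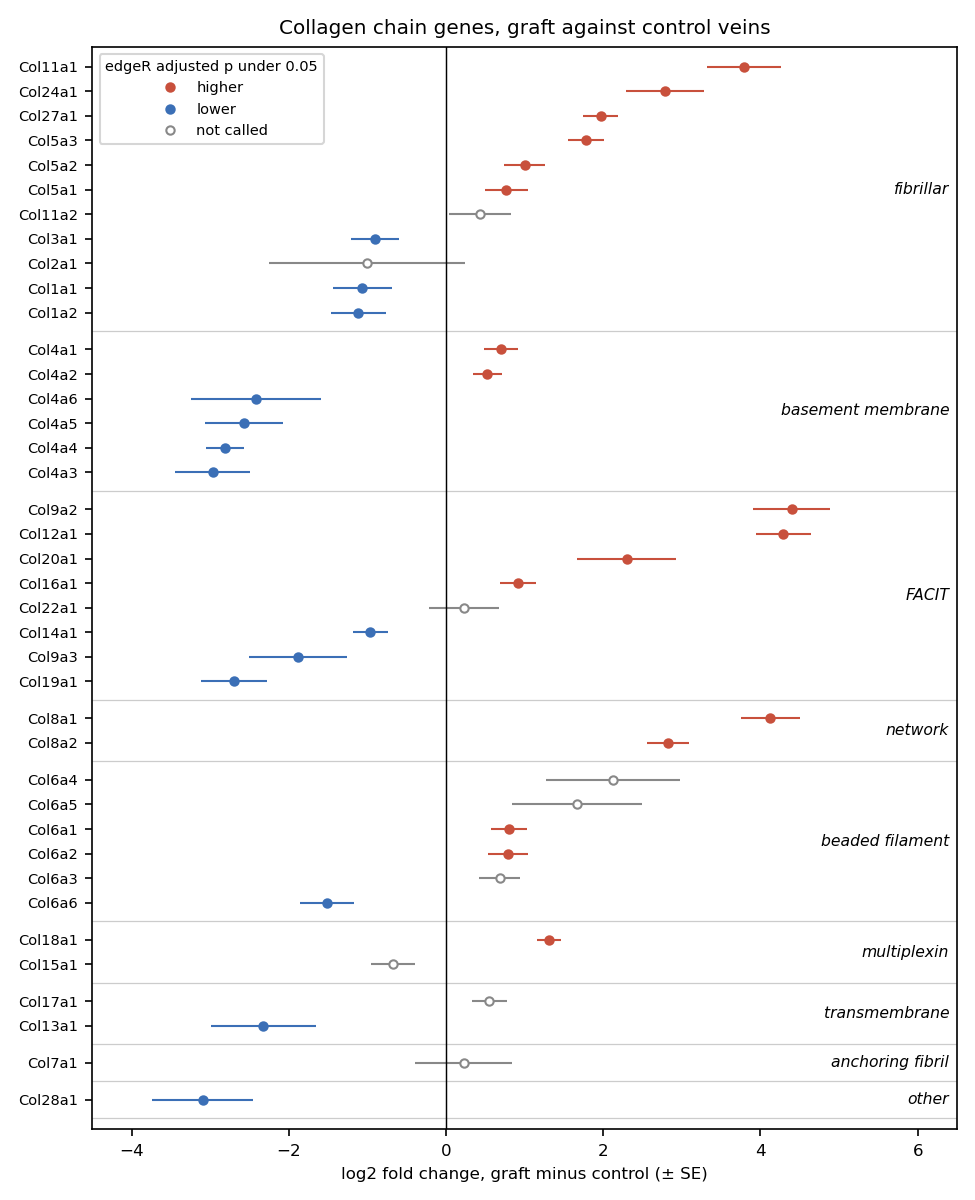
Log2 fold change (graft minus control, x axis) with its standard error for the 39 tested collagen genes, grouped by family and sorted within it; red marks genes called higher, blue lower and open grey not called by edgeR. Members of the fibrillar, basement membrane, FACIT and beaded filament families lie on both sides of 0, and the extremes are Col28a1 at -3.09 and Col9a2 at 4.39.

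In the libraries as sequenced, the 44 genes took 14.03, 11.7, 8.70 and 8.43% of the counts across controls 1 to 4, against 11.1, 9.15, 5.97 and 8.47% across grafts 1 to 4, with overlap. Their makeup differed between the groups. Col1a1 and Col3a1 together held 12.4, 10.3, 7.41 and 7.10% of the counts across the controls, against 6.95, 5.97, 3.66 and 5.24% across the grafts, so every graft lay below every control. The other 42 genes held 1.68, 1.44, 1.29 and 1.34% across the controls, against 4.16, 3.18, 2.31 and 3.23% across the grafts, so every graft lay above every control. In CPM this was a 1.97-fold lower sum for Col1a1 and Col3a1 and a 1.94-fold higher sum for the rest. By family, the summed FACIT level was 9.85-fold, the network level 14.5-fold and the multiplexin level 2.40-fold higher in the grafts, each without overlap of the groups. The sums of the beaded filament (1.62-fold) and basement membrane genes (1.29-fold) overlapped between the groups in CPM. Sums are led by the most counted member of each family and were not tested.

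**Figure D2:**
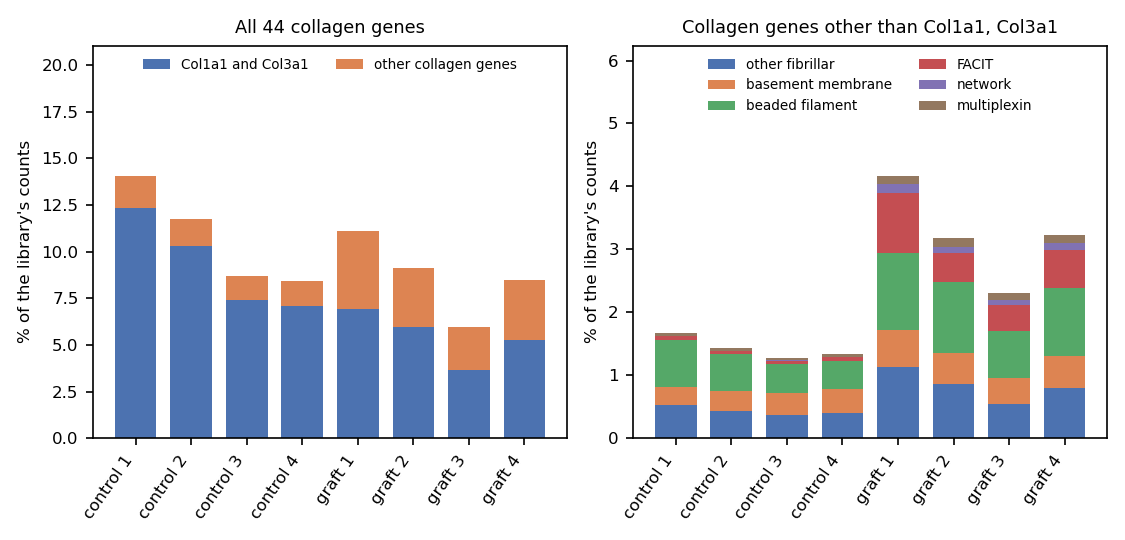
Share of each library's counts (%, y axis) taken by collagen genes in control veins 1 to 4 and graft veins 1 to 4; the left panel parts Col1a1 and Col3a1 from the other 42 genes, and the right panel parts those others by family (transmembrane, anchoring fibril and other types are too low to draw). Col1a1 and Col3a1 hold less in every graft than in any control, and the others hold more, with the FACIT part going from between 0.0487 and 0.0637% to between 0.418 and 0.957%.

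The fibrillar family split: the chains of types I and III fell, and those of types V, XI, XXIV and XXVII that changed all rose. Of 11 fibrillar genes, all tested, 6 rose, 3 fell and 2 missed the threshold, and the median log2 change was 0.77. The share that rose was 54.5%, against 21% of all genes, and the share that fell, 27.3%, was near the 21.3% of all genes. Col1a1 and Col3a1 make the main fibrils of the vessel wall. Col1a1 stood at 69736, 52145, 33616 and 33793 CPM across controls 1 to 4, against 32013, 26251, 13442 and 18837 CPM across grafts 1 to 4. Col3a1 stood at 62314, 61928, 44183 and 45431 CPM across controls 1 to 4, against 35749, 31017, 17378 and 30244 CPM across grafts 1 to 4. For both genes every graft lay below every control, and graft 3 was the lowest library. Col1a1 fell by 1.06 (SE 0.37) on the log2 scale with an edgeR adjusted p of 0.0431, and Col3a1 by 0.90 (SE 0.31) on the log2 scale with an edgeR adjusted p of 0.0385. Col1a2, the second chain of type I, stood at 2057, 1238, 682 and 1261 CPM across controls 1 to 4, against 876, 650.0, 369 and 523 CPM across grafts 1 to 4, and fell by 1.12 (SE 0.35) on the log2 scale with an edgeR adjusted p of 0.028. For Col1a2 the groups overlapped through control 3. Col1a2 carried few reads for a partner of Col1a1: the count ratio Col1a1/Col1a2 was 33.9, 42.1, 49.3 and 26.8 across controls 1 to 4, against 36.6, 40.4, 36.4 and 36.0 across grafts 1 to 4. That ratio overlapped between the groups. Whether the row Col1a2 holds all reads of that gene was not tested.

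These falls were close to the threshold. Col1a1 was not past it without control 1, control 2, control 4, graft 2, graft 3 or graft 4, with library totals alone or with upper-quartile factors (adjusted p = 0.0502 to 0.112). Col1a2 was not past it without control 1, control 2, control 4, graft 2, graft 3 or graft 4 (adjusted p = 0.0538 to 0.0727), and Col3a1 was not without control 1, control 2, control 4, graft 1, graft 2, graft 3 or graft 4 or with controls 3 and 4 both left out (adjusted p = 0.053 to 0.107). The fibroblast markers moved in both directions (3 of 7 rose, 1 fell, and over all genes 42.3% were called). Their summed levels were 4361 to 6142 CPM in the controls and 2612 to 5899 CPM in the grafts. All 8 smooth muscle markers fell, from 13079.9 to 21663 CPM to 1815 to 3470.2 CPM in sum. The part of both marker lists in the lower type I and III levels was not tested.

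Type V collagen is built into type I and III fibrils, where it starts them and limits their width. Col5a1 stood at 1949, 1788, 1420.0 and 1394 CPM across controls 1 to 4, against 4071, 2973, 1643 and 2473 CPM across grafts 1 to 4. Col5a2 stood at 1364, 1551, 1503 and 1584 CPM across controls 1 to 4, against 4212, 3105, 1655 and 3036 CPM across grafts 1 to 4. Graft 3 was the lowest graft for both, and it overlapped the controls for Col5a1 only. Col5a1 rose with a log2 change of 0.77 (SE 0.27) and an edgeR adjusted p of 0.0434, and Col5a2 with a log2 change of 1.00 (SE 0.26) and an edgeR adjusted p of 0.0117. Col5a3, the remaining type V chain, stood at 183, 174, 237 and 225 CPM across controls 1 to 4, against 797, 916, 445 and 653 CPM across grafts 1 to 4, without overlap, and rose with a log2 change of 1.78 (SE 0.23) and an edgeR adjusted p of 0.000284. Col5a1 was not past the threshold without control 2, control 3, control 4, graft 1, graft 2 or graft 4 or with controls 3 and 4 both left out (adjusted p = 0.0625 to 0.261), and Col5a2 was not with controls 3 and 4 both left out (adjusted p = 0.0701). A ratio of counts within a library needs no scaling. The ratios given next each set a gene called higher over a gene called lower, so their separation adds no support to the calls. Chosen after their values were seen, Col5a1 per Col1a1 was 2.79, 3.43, 4.22 and 4.13% across controls 1 to 4, against 12.7, 11.3, 12.2 and 13.1% across grafts 1 to 4, and Col5a2 per Col3a1 was 2.19, 2.50, 3.40 and 3.49% and 11.8, 10.0, 9.52 and 10.0%. The geometric mean ratios were 3.43-fold and 3.63-fold higher in the grafts. Col5a2 and Col3a1 are next to each other among the protein-coding genes of the GRCr8 assembly, and moved in opposite directions. The balance of Col5a1 to Col5a2 overlapped between the groups (0.88 to 1.43 in the controls and 0.815 to 0.993 in the grafts).

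Type XI collagen is best known from cartilage, where it starts type II fibrils, and its first chain can also assemble with type V chains. Col11a1 stood at 23.1, 29.1, 75.7 and 69.1 CPM across controls 1 to 4, against 1079, 528, 388 and 723 CPM across grafts 1 to 4. Every graft was above every control, and controls 3 and 4 were above controls 1 and 2. Col11a1 rose with a log2 change of 3.79 (SE 0.48) and an edgeR adjusted p of 0.000269, with means of 49.3 ± 27.0 CPM (SD, n = 4) and 679.8 ± 299.9 CPM (SD, n = 4), a 13.8-fold difference. With controls 3 and 4 left out the log2 fold change was 4.71 (edgeR adjusted p = 0.00073). The other type XI chain with a gene of its own, Col11a2, stayed low, at 2.15 ± 0.657 CPM and 2.89 ± 1.24 CPM, with a log2 change of 0.43 (SE 0.39) and an edgeR adjusted p of 0.405. The count ratio Col11a1/Col11a2 was 9.09 to 33.5 in the controls and 88.2 to 352 in the grafts, without overlap.

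Col27a1 and Col24a1, fibrillar chains known from cartilage and bone, also rose. Col27a1 stood at 7.64, 8.07, 9.12 and 8.21 CPM across controls 1 to 4, against 35.1, 29.4, 43.99 and 21.1 CPM across grafts 1 to 4, without overlap, and rose with a log2 change of 1.97 (SE 0.22) and an edgeR adjusted p of 0.000156. Col24a1 stood at 0.749, 1.20, 3.76 and 2.24 CPM across controls 1 to 4, against 20.8, 12.1, 14.1 and 7.58 CPM across grafts 1 to 4, without overlap, and rose with a log2 change of 2.79 (SE 0.50) and an edgeR adjusted p of 0.00184. Without control 3 the log2 fold change of Col24a1 was 3.39, and without controls 3 and 4 it was 3.83. Col2a1, the main collagen of cartilage, stood at 0.225, 0, 6.78 and 3.17 CPM across controls 1 to 4, against 1.03, 0.0751, 3.599 and 0.385 CPM across grafts 1 to 4 and had a log2 change of -1.01 (SE 1.24) and an edgeR adjusted p of 0.544. Controls 3 and 4 were its highest controls, and its sign turned without control 3 (0.40, adjusted p = 0.847) and without controls 3 and 4 (3.24, adjusted p = 0.178). Of 8 cartilage markers 4 were tested and all 4 rose (Acan, Sox9, Matn3 and Comp), with summed levels of 1.95 to 23.0 CPM in the controls and 149.6 to 703 CPM in the grafts, while Lect1, Hapln1 and Chad did not reach the filter and Matn1 had no counts in any library. Of the untested, Lect1 and Hapln1 had lower levels in the grafts: Lect1 had 1, 3, 163 and 56 counts over controls 1 to 4 and 0, 0, 3 and 0 over grafts 1 to 4, and Hapln1 averaged 1.01 to 0.146 CPM from controls to grafts. Of 8 bone markers 6 were tested, of which 4 rose (Runx2, Spp1, Ibsp and Bglap), Dmp1 fell and Alpl missed the threshold, with summed levels of 26.9 to 111 CPM in the controls and 338 to 1267 CPM in the grafts. Runx2 averaged 9.17 to 83.4 CPM and Spp1 24.4 to 523 CPM from controls to grafts, and Dmp1 20.9 to 2.52 CPM. Their part in the rises of Col11a1, Col24a1 and Col27a1 was not tested.

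**Figure D3:**
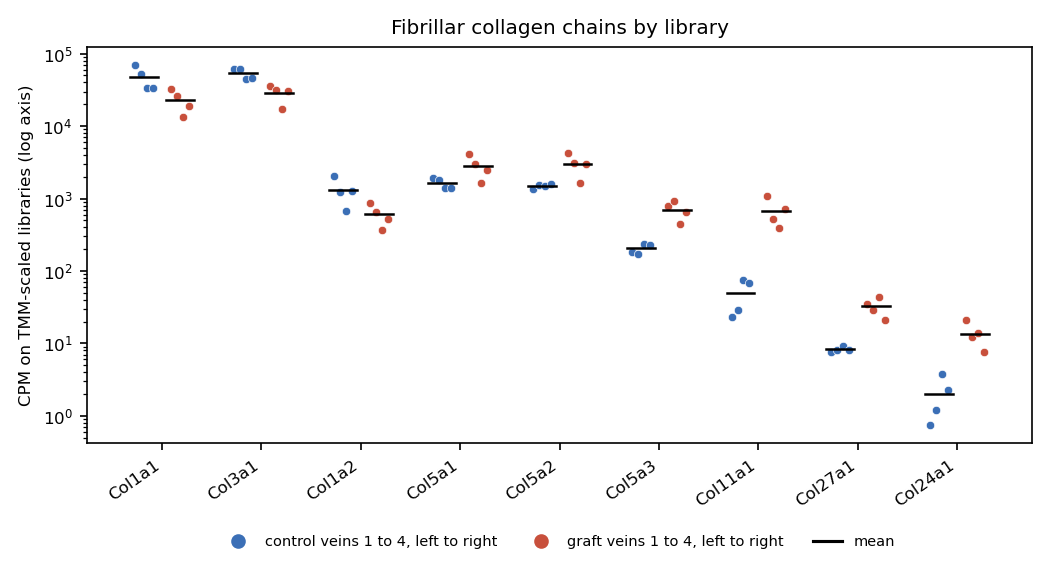
CPM (y axis, log scale) of 9 fibrillar collagen genes in control veins 1 to 4 (blue) and graft veins 1 to 4 (red), each group in order of its number, with the mean as a line. Col1a1 and Col3a1 lie lower in the grafts, Col1a2 overlaps, and Col5a2, Col5a3, Col11a1, Col24a1 and Col27a1 lie higher in each graft than in any control.

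Promoter sequence was at hand for 35 of the 44 genes in RefSeq tables of assembly GRCr8 (the submitters' processing notes name Rnor_6.0 for the counts), and not for Col12a1, Col14a1, Col1a1, Col22a1, Col25a1, Col2a1, Col3a1, Col6a2 and Col9a3. The 250 bases before each annotated start were searched on both strands, with overlapping matches counted, for 5 short motifs. These were the CCAAT box, the GC box (spelled GGGCGG), the TATA box (spelled TATAAA), the letters TGANTCA known to be bound by AP-1, and the letters GGAATG known to be bound by TEAD factors. Each is a match of letters and not a measured site. A collagen gene with several annotated starts (Col24a1 and Col6a5) was counted once, with a motif before any of them. The share over all promoters counts each distinct sequence, so the shares differ in unit. GC boxes were found before 19 of the 35 (54.3%, against 30.5% of all promoters of that length), among them 12 of 15 genes that rose and 4 of 9 that fell. CCAAT was found before 11 (31.4%, against 34%), TATAAA before 4 (11.4%, against 12.9%), the AP-1 letters before 1, Col6a1 (2.86%, against 6.35%), and the TEAD letters before 5 (14.3%, against 12.1%). The starts of 3 fibrillar genes are shown because they moved differently: Col1a2 fell, and Col5a3 and Col11a1 rose. Capitals mark the letters of these 5 motifs on either strand. Col1a2 holds CCAAT (read here as its complement) and TATAAA and no GC box, and the other 2 hold CCAAT letters and 3 GC boxes each and no TATAAA. Among the other members, Col5a2, Col6a1 and Col9a2 rose with no GC box, and Col4a3, Col4a5, Col4a6 and Col6a6 fell with 1 each. Shares over all rising and all falling genes were not counted.
Col1a2 (chr4:33518307-33518556, plus strand): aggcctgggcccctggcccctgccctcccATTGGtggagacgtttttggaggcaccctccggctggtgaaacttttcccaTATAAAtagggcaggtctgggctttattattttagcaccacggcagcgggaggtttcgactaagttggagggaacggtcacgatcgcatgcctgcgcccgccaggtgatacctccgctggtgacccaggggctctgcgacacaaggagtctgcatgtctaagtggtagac
Col5a3 (chr8:27625949-27626198, minus strand): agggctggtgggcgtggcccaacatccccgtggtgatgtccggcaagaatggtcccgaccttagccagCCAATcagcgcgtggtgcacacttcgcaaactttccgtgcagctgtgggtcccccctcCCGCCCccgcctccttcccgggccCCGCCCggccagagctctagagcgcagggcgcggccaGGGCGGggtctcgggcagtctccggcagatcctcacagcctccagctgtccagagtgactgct
Col11a1 (chr2:204508886-204509135, plus strand): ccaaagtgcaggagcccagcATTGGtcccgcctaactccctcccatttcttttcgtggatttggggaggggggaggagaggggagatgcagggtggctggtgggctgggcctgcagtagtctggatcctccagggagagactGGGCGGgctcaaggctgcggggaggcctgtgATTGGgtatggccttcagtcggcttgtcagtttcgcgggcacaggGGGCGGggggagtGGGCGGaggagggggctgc

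Type IV collagen, the sheet of basement membranes, parted by chain pair. Its 6 genes lie as 3 pairs, each with the starts facing apart, and make 3 kinds of trimer: the Col4a1 and Col4a2 chains form the trimer of nearly all basement membranes, the Col4a3, Col4a4 and Col4a5 chains that of the kidney filter, and the Col4a5 and Col4a6 chains one of smooth muscle and some epithelia. Of the 6 genes 2 rose and 4 fell (over all genes 21% rose and 21.3% fell): Col4a1 and Col4a2 were higher, and the other 4 were 5.30- to 7.93-fold lower by group means. For each of the 4 that fell every graft lay below every control. Col4a1 stood at 1240.4, 1601, 1842 and 2098 CPM across controls 1 to 4, against 3354, 2743, 2076 and 2833 CPM across grafts 1 to 4. Col4a2 stood at 1027, 1228, 1218 and 1541 CPM across controls 1 to 4, against 2170.0, 1784, 1443 and 1818 CPM across grafts 1 to 4. In both, graft 3 lay within the range of the controls and the other grafts above it. Col4a1 rose with a log2 change of 0.70 (SE 0.21) and an edgeR adjusted p of 0.026, and Col4a2 with a log2 change of 0.53 (SE 0.18) and an edgeR adjusted p of 0.0427. Col4a1 was not past the threshold without control 2, graft 1, graft 2 or graft 4 (adjusted p = 0.053 to 0.0712), and Col4a2 was not without control 1, control 2, control 3, graft 1, graft 2 or graft 4 or with controls 3 and 4 both left out (adjusted p = 0.0616 to 0.111). Their count ratio was 1.21, 1.30, 1.51 and 1.36 across controls 1 to 4, against 1.55, 1.54, 1.44 and 1.56 across grafts 1 to 4, which overlapped.

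Col4a5 was the most counted of the falling chains. It stood at 745, 674, 521 and 516 CPM across controls 1 to 4, against 76.3, 207, 27.9 and 103 CPM across grafts 1 to 4, and fell by 2.57 (SE 0.50) on the log2 scale with an edgeR adjusted p of 0.00278. Col4a6 stood at 68.8, 34.8, 42.2 and 31.4 CPM across controls 1 to 4, against 3.34, 25.9, 0.8 and 3.34 CPM across grafts 1 to 4, and fell by 2.42 (SE 0.83) on the log2 scale with an edgeR adjusted p of 0.0405. Graft 2 was the highest graft for both and, for Col4a6, far above the other 3. Without graft 2 the log2 fold change of Col4a6 was -4.12 (edgeR adjusted p = 0.000495), and with limma voom it was -3.45. Col4a6 was not past the threshold without control 1, control 2, control 3, control 4, graft 1, graft 3 or graft 4 or with controls 3 and 4 both left out (adjusted p = 0.0579 to 0.0996). Per Col4a1, and chosen after its values were seen, the Col4a5 count was 60.1, 42.1, 28.3 and 24.6% across controls 1 to 4, against 2.27, 7.53, 1.34 and 3.63% across grafts 1 to 4. The geometric mean ratio was 12.0-fold lower in the grafts, without overlap. The smooth muscle markers fell too, 8 of 8, with summed levels of 3470.2, 3424, 1815 and 3070.4 CPM across grafts 1 to 4. In counts not scaled for library size, Myh11 had 11234 in graft 1 and 12228 in graft 2, and Acta2 had 18932 and 15054. Total counts were 16061189 in graft 1 and 12772824 in graft 2, so these counts do not rank the grafts by level. The part of the smooth muscle markers in the falls of Col4a5 and Col4a6 was not tested.

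Col4a4 stood at 17.8, 28.0, 24.5 and 21.3 CPM across controls 1 to 4, against 2.43, 2.85, 3.36 and 4.37 CPM across grafts 1 to 4, and fell by 2.81 (SE 0.24) on the log2 scale with an edgeR adjusted p of 3.84e-05. Col4a3, outside the level set for single values and given here because it shares its trimer and start region with Col4a4, stood at 4.42, 4.58, 2.59 and 5.23 CPM across controls 1 to 4, against 0.667, 0.526, 0.8 and 0.128 CPM across grafts 1 to 4, and fell by 2.97 (SE 0.48) on the log2 scale with an edgeR adjusted p of 0.00105. No graft reached any control for either gene. The counts of Col4a3 in the grafts were few, 11, 7, 10 and 2 across grafts 1 to 4, and the ratio Col4a3/Col4a4 overlapped between the groups.

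**Figure D4:**
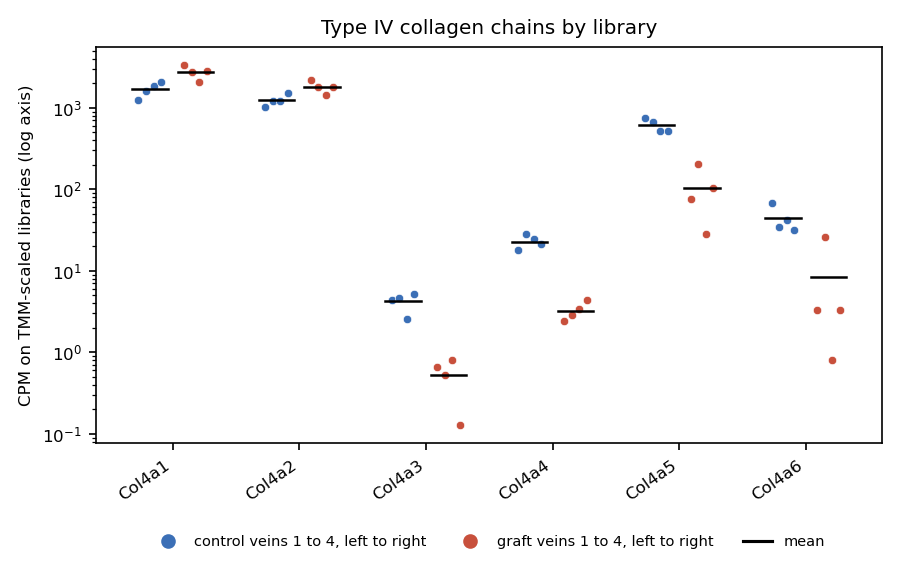
CPM (y axis, log scale) of the 6 type IV collagen genes in control veins 1 to 4 (blue) and graft veins 1 to 4 (red), each group in order of its number, with the mean as a line. Col4a1 and Col4a2 overlap between the groups at graft 3, and Col4a3 to Col4a6 lie lower in each graft than in any control, with Col4a6 at 25.9 CPM in graft 2.

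The start regions of type IV pairs are shown because the partners of each pair moved the same way. The Col4a1 and Col4a2 pair rose, while the Col4a3 and Col4a4 pair and the Col4a5 and Col4a6 pair fell. In GRCr8 the starts of Col4a2 and Col4a1 are 76 bases apart, those of Col4a4 and Col4a3 412 and those of Col4a6 and Col4a5 1414. The 76 bases between Col4a2 and Col4a1 are given on the strand of Col4a1, with the GC box (on the other strand) in capitals; they hold no CCAAT and no TATAAA. The 250 bases before Col4a3 and Col4a4 share 88 bases on opposite strands; capitals mark the 5 motifs, of which Col4a3 holds 1 GC box and Col4a4 none.
Col4a2 to Col4a1 (chr16:84885521-84885596, plus strand): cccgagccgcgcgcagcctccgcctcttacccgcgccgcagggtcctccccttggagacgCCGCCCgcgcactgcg
Col4a3 (chr9:91323740-91323989, plus strand): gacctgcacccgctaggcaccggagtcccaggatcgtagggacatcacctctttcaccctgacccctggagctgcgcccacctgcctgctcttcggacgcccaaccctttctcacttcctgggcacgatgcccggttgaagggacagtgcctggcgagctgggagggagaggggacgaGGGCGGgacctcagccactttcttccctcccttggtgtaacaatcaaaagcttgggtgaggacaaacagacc
Col4a4 (chr9:91323578-91323827, minus strand): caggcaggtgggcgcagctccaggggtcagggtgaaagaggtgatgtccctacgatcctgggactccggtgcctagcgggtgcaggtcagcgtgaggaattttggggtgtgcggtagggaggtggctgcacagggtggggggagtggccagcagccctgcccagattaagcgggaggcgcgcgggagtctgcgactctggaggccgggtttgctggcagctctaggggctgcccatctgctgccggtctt

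The FACIT family held both large rises and falls. Of 9 genes 8 were tested: 4 rose (Col9a2, Col12a1, Col16a1 and Col20a1), 3 fell (Col9a3, Col14a1 and Col19a1) and Col22a1 did not pass. Over all genes 21% rose and 21.3% fell. Col12a1 and Col14a1 both lie on type I fibrils, Col12a1 chiefly in tissue under load. Col12a1 stood at 260.2, 226, 287 and 296 CPM across controls 1 to 4, against 8712, 4083, 2924 and 5238 CPM across grafts 1 to 4. The controls lay close together and every graft was far above them. Col12a1 rose with a log2 change of 4.29 (SE 0.35) and an edgeR adjusted p of 3.55e-05, from 267 ± 31.6 CPM (SD, n = 4) to 5239 ± 2501 CPM (SD, n = 4), a 19.6-fold difference. By counts it ranked 557, 812, 535 and 555 among all rows across controls 1 to 4, against 5, 14, 12 and 7 across grafts 1 to 4. Chosen after its values were seen, Col12a1 per Col1a1 was 0.373, 0.433, 0.854 and 0.877% across controls 1 to 4, against 27.2, 15.6, 21.8 and 27.8% across grafts 1 to 4. Col14a1 stood at 89.7, 74.9, 54.8 and 61.6 CPM across controls 1 to 4, against 40.6, 30.3, 25.4 and 47.8 CPM across grafts 1 to 4, without overlap, and fell by 0.96 (SE 0.22) on the log2 scale with an edgeR adjusted p of 0.00721. Also chosen after its values were seen, the ratio Col12a1/Col14a1 went from 2.90 to 5.24 in the controls to 109.7 to 215 in the grafts. It sets a gene called higher over a gene called lower, so its separation adds no support to either call.

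Col16a1, a FACIT of several connective tissues, stood at 289, 209, 175 and 140.4 CPM across controls 1 to 4, against 469, 406, 366 and 299 CPM across grafts 1 to 4, without overlap, and rose with a log2 change of 0.92 (SE 0.23) and an edgeR adjusted p of 0.00985. It was not past the threshold with controls 3 and 4 both left out (adjusted p = 0.0741). Col20a1 stood at 24.0, 13.0, 18.7 and 11.4 CPM across controls 1 to 4, against 86.0, 23.6, 195 and 29.6 CPM across grafts 1 to 4. Grafts 1 and 3 were high and grafts 2 and 4 near the highest controls, and graft 2 lay below control 1. Col20a1 rose with a log2 change of 2.30 (SE 0.63) and an edgeR adjusted p of 0.0156, and by 1.47 without graft 3 (adjusted p = 0.0341). It was not past the threshold with controls 3 and 4 both left out or by limma voom (adjusted p = 0.0661 to 0.107). Col19a1, known from basement membrane zones, averaged 18.8 ± 6.12 CPM (SD, n = 4) in the controls and 2.87 ± 1.49 CPM (SD, n = 4) in the grafts, without overlap, and fell by 2.69 (SE 0.42) on the log2 scale with an edgeR adjusted p of 0.000891. Col22a1, known from the junction of muscle and tendon, averaged 2.20 ± 1.31 CPM and 2.49 ± 0.693 CPM, with a log2 change of 0.23 (SE 0.45) and an edgeR adjusted p of 0.707.

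Type IX chains decorate cartilage fibrils as a trimer of Col9a1, Col9a2 and Col9a3, and in these veins Col9a2 rose while Col9a3 fell. Col9a2 stood at 0.375, 0.299, 0.0837 and 0.187 CPM across controls 1 to 4, against 7.16, 4.88, 6.48 and 2.76 CPM across grafts 1 to 4. Every graft was above every control, and the control counts were few (5, 3, 1 and 1 counts across controls 1 to 4, against 118, 65, 81 and 43 across grafts 1 to 4). Col9a2 rose with a log2 change of 4.39 (SE 0.49) and an edgeR adjusted p of 0.00015. Col9a3 averaged 4.47 ± 3.39 CPM and 1.19 ± 0.538 CPM and fell by 1.88 (SE 0.62) on the log2 scale with an edgeR adjusted p of 0.0354, with controls 3 and 4, at 7.86 and 6.91 CPM, above all other libraries. Without those controls the log2 fold change of Col9a3 was -0.39 (adjusted p = 0.621), and the call was lost without control 3, control 4, graft 1, graft 2, graft 3 or graft 4, with library totals alone, with controls 3 and 4 both left out or by limma voom (adjusted p = 0.0525 to 0.621). The count ratio Col9a2/Col9a3 was 0.0106 to 0.217 for the controls and 3.86 to 6.5 for the grafts. Col9a1 did not reach the filter, with 22 counts over the controls and 15 over the grafts.

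Both chains of type VIII collagen, a network of the layer under endothelium and of Descemet's membrane in the eye, were higher in the grafts. Col8a1 stood at 23.7, 43.9, 69.3 and 62.7 CPM across controls 1 to 4, against 1175, 745, 563 and 988 CPM across grafts 1 to 4. Col8a2 stood at 21.3, 15.3, 21.3 and 20.5 CPM across controls 1 to 4, against 191, 98.6, 92.0 and 174 CPM across grafts 1 to 4. Neither gene overlapped between the groups, and graft 1 was the highest library for both. Col8a1 rose with a log2 change of 4.12 (SE 0.38) and an edgeR adjusted p of 5.25e-05, a 17.4-fold difference of means, and Col8a2 with a log2 change of 2.83 (SE 0.27) and an edgeR adjusted p of 6.21e-05, a 7.09-fold difference. The ratio Col8a1/Col8a2 was 1.11, 2.86, 3.25 and 3.05 across controls 1 to 4, against 6.14, 7.56, 6.13 and 5.67 across grafts 1 to 4, without overlap and not tested. Col10a1, the network collagen of cartilage that turns to bone, did not reach the filter, with 8 counts over the controls and 46 over the grafts. Unfiltered, Col10a1 had an edgeR adjusted p of 0.101. It reached the filter and passed without control 3 (adjusted p = 0.0149) and without controls 3 and 4 (adjusted p = 0.0389). It also reached the filter without control 1, control 2, control 4 or graft 2, and did not pass (edgeR adjusted p = 0.0654 to 0.111). The starts of both type VIII genes are shown because both rose and both hold many GC boxes, 4 and 5 (overlapping matches counted), in capitals with the other motif letters; neither holds CCAAT or TATAAA.
Col8a1 (chr11:56246532-56246781, plus strand): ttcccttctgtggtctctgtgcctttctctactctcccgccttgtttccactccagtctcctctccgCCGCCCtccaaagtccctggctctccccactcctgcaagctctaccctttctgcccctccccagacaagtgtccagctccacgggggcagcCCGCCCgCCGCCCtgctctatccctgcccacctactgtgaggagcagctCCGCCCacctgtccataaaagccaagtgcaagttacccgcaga
Col8a2 (chr5:143870519-143870768, plus strand): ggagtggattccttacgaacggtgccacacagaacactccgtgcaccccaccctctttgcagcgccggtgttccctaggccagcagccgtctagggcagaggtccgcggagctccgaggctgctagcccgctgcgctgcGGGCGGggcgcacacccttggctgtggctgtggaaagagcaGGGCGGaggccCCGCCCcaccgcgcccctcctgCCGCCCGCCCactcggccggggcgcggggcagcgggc

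Type VI collagen forms the beaded filaments around cells from Col6a1, Col6a2 and a further chain, which is Col6a3 or 1 of its relatives Col6a4, Col6a5 and Col6a6. Of these 6 genes 2 rose, 1 fell and 3 did not pass, so 50% were called, near the 42.3% over all genes. Col6a1 stood at 1792, 1695, 1247 and 1228 CPM across controls 1 to 4, against 3055, 2929, 1703 and 2728 CPM across grafts 1 to 4. Col6a2 stood at 1918, 1525, 1173 and 1190.2 CPM across controls 1 to 4, against 3044, 2939.5, 1540.4 and 2541 CPM across grafts 1 to 4. Graft 3 fell within the range of the controls for both, and the other grafts lay above it. Col6a1 rose with a log2 change of 0.80 (SE 0.23) and an edgeR adjusted p of 0.0183, and Col6a2 with a log2 change of 0.79 (SE 0.25) and an edgeR adjusted p of 0.0309. Col6a3, the most counted of the family, stood at 3852, 2939, 2140.1 and 2392 CPM across controls 1 to 4, against 5733, 4838, 2929.7 and 4703 CPM across grafts 1 to 4, with a log2 change of 0.68 (SE 0.26) and an edgeR adjusted p of 0.0597, which missed the threshold but passed it in 7 of 15 other settings, DESeq2 among them (adjusted p = 0.0168). The ratio of Col6a1 to Col6a2 ran from 0.934 to 1.11 in the controls and 0.997 to 1.11 in the grafts, and that of Col6a3 to Col6a1 from 1.72 to 2.15 and 1.65 to 1.88, with overlap of the groups in both ratios. Col6a1 was not past the threshold without control 3, control 4 or graft 1 or with controls 3 and 4 both left out (adjusted p = 0.051 to 0.165), and Col6a2 was not without control 2, control 3, control 4, graft 1, graft 2 or graft 4 or with controls 3 and 4 both left out (adjusted p = 0.0622 to 0.23).

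Col6a6 went the other way. It stood at 422, 232, 230.2 and 216 CPM across controls 1 to 4, against 123, 56.9, 61.2 and 144 CPM across grafts 1 to 4, without overlap, and fell by 1.51 (SE 0.35) on the log2 scale with an edgeR adjusted p of 0.00663. Control 1 was far above the other controls, and without it Col6a6 still fell (log2 change -1.23, edgeR adjusted p = 0.0122). Per Col6a1, chosen after its values were seen, Col6a6 was 23.6, 13.7, 18.5 and 17.6% across controls 1 to 4, against 4.04, 1.94, 3.59 and 5.27% across grafts 1 to 4, a 5.15-fold lower geometric mean ratio. Col6a4 and Col6a5 were rare, at means of 0.381 and 1.18 CPM in the controls and 1.99 and 3.38 CPM in the grafts, and did not pass (adjusted p = 0.0701 and 0.132). Col6a4 passed without control 1 (log2 change 4.10 instead of 2.13, adjusted p = 0.00501), with DESeq2 (adjusted p = 0.0371) and with limma voom (adjusted p = 0.0165). Col6a5 passed with controls 3 and 4 left out (log2 change 3.62 instead of 1.66, adjusted p = 0.0304). Col6a4, Col6a5 and Col6a6 lie side by side in GRCr8.

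The 2 multiplexins differed. Col18a1, whose end is cut off as endostatin, stood at 478, 474, 415 and 439 CPM across controls 1 to 4, against 1170.0, 1351, 897 and 1069 CPM across grafts 1 to 4. The controls spread little and every graft was above them. Col18a1 rose with a log2 change of 1.31 (SE 0.15) and an edgeR adjusted p of 0.000189. Col15a1, its relative, averaged 20.3 ± 4.78 CPM and 12.7 ± 4.78 CPM, with a log2 change of -0.68 (SE 0.28) and an edgeR adjusted p of 0.0766, and passed without graft 2 (adjusted p = 0.0198). Col15a1 per Col18a1 was 5.42, 3.07, 5.24 and 4.33% across controls 1 to 4, against 1.13, 1.42, 0.928 and 0.949% across grafts 1 to 4, a 4.04-fold lower geometric mean ratio without overlap. Of 8 endothelial markers, whose cells sit on these collagens, 4 fell and 4 did not pass (over all genes 42.3% were called, 21.3% lower). These markers had summed levels of 3129 to 4880.1 CPM in the controls and 1451 to 1775 CPM in the grafts, and their part was not tested.

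The transmembrane, anchoring and remaining collagens were low in these veins. Col28a1, known from the surroundings of Schwann cells in peripheral nerve, stood at 12.5, 26.8, 68.8 and 54.7 CPM across controls 1 to 4, against 2.37, 2.25, 10.6 and 3.92 CPM across grafts 1 to 4. Controls 3 and 4 were the highest libraries, and every graft lay below every control. Col28a1 fell by 3.09 (SE 0.64) on the log2 scale with an edgeR adjusted p of 0.00415. Its log2 change was -2.04 when controls 3 and 4 were left out (adjusted p = 0.0411) and -3.81 without graft 3. Of 8 Schwann cell markers 4 fell and 4 did not pass (over all genes 42.3% were called, 21.3% lower). Their summed level was 283, 371, 3277 and 3058 CPM across controls 1 to 4, against 227, 165, 473 and 199 CPM across grafts 1 to 4, high in the same 2 controls as Col28a1 and highest among grafts in graft 3, as for Col28a1. Their part in its fall was not tested.

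Col13a1, a transmembrane collagen of the nerve and muscle junction, averaged 6.72 ± 4.17 CPM (SD, n = 4) and 1.32 ± 0.442 CPM (SD, n = 4), overlapped between the groups through control 1, and fell by 2.32 (SE 0.66) on the log2 scale with an edgeR adjusted p of 0.0189. Col13a1 was not past the threshold without control 3 or graft 1, with controls 3 and 4 both left out or by limma voom (adjusted p = 0.0526 to 0.207), with log2 fold changes of -1.56 without controls 3 and 4 and -1.63 by limma voom. Col17a1, a transmembrane collagen of epithelial attachment, stood at 6.97, 4.88, 4.94 and 5.04 CPM across controls 1 to 4, against 7.95, 6.38, 7.60 and 10.2 CPM across grafts 1 to 4. Graft 2 lay below control 1 and the other grafts above all controls, with a log2 change of 0.55 (SE 0.22) and an edgeR adjusted p of 0.0713. Col17a1 passed without control 1 (adjusted p = 0.0268) and with library totals alone (adjusted p = 0.0233). Col7a1, the anchoring fibril of skin, stood at 23.7, 15.3, 10.2 and 5.23 CPM across controls 1 to 4, against 17.1, 5.78, 35.8 and 5.91 CPM across grafts 1 to 4, spread widely in both groups and had a log2 change of 0.22 (SE 0.62) and an edgeR adjusted p of 0.795. Col23a1, Col25a1 and Col26a1 did not reach the filter. Their counts over the controls were 19, 2 and 7 and over the grafts 4, 3 and 41, and in the fit with no filter their edgeR adjusted p was 0.107, 0.959 and 0.116.

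**Figure D5:**
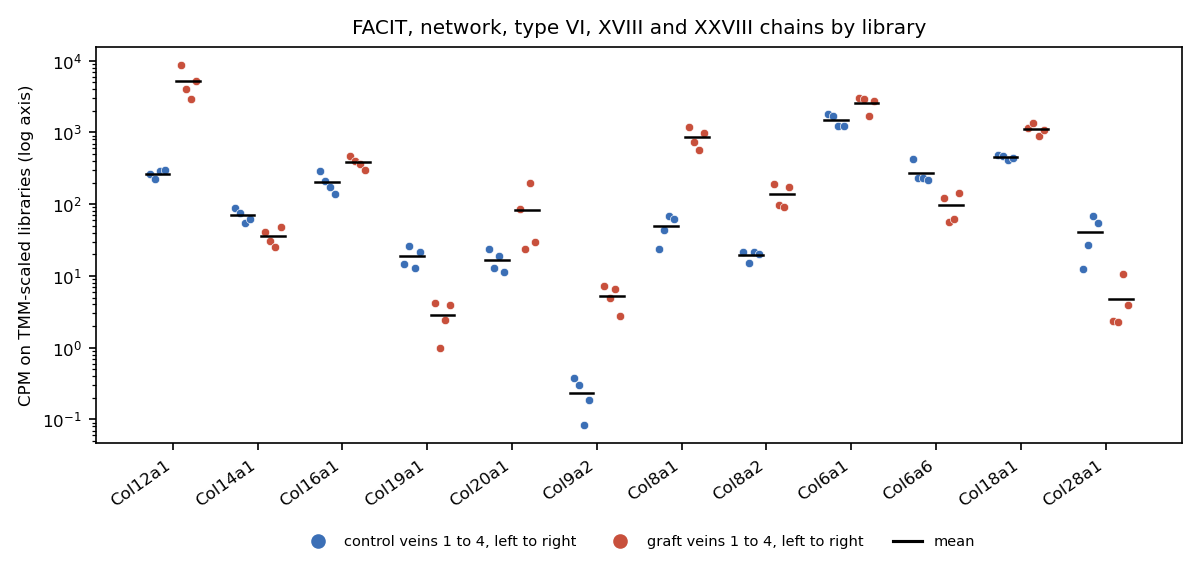
CPM (y axis, log scale) of 12 collagen genes outside the fibrillar and type IV families in control veins 1 to 4 (blue) and graft veins 1 to 4 (red), each group in order of its number, with the mean as a line. Col12a1, Col16a1, Col9a2, Col8a1, Col8a2 and Col18a1 lie higher in each graft than in any control, Col14a1, Col19a1, Col6a6 and Col28a1 lie lower, and Col6a1 and Col20a1 overlap.

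New collagen chains are hydroxylated, glycosylated and folded in the endoplasmic reticulum, then trimmed outside the cell and crosslinked. Of 20 genes of hydroxylation and folding, 9 rose, 4 fell and 7 missed the threshold (over all genes 42.3% were called), and their median log2 change was 0.38 against 0.01 over all genes. P4ha3, a catalytic subunit of prolyl hydroxylase, went from 3.22 to 41.8 CPM (a log2 change of 3.76, SE 0.31, edgeR adjusted p of 3.58e-05). Colgalt2, which adds galactose to hydroxylysine, went from 39.2 to 9.40 CPM and fell by 2.06 (SE 0.22) on the log2 scale, with an edgeR adjusted p of 0.000107. Of 12 genes of processing and crosslinking, Tll2 did not reach the filter, and of the other 11 tested 3 rose, 2 fell and 6 missed the threshold, at a median of 0.23. The share called was near the 42.3% over all genes. Adamts14, which trims the leading end of procollagens, went from 17.1 to 61.6 CPM (a log2 change of 1.84, SE 0.18, edgeR adjusted p of 8.15e-05) and Loxl1, a crosslinking oxidase, from 68.5 to 290.3 CPM (a log2 change of 2.08, SE 0.24, edgeR adjusted p of 0.000159). Lox, the main crosslinking oxidase of fibrils, did not pass, with a log2 change of -0.38, SE 0.32, edgeR adjusted p of 0.377, and was named after its values were seen.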

How the data were processed

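The series gives 1 table of whole-number counts per gene for 8 libraries, as the authors deposited it, with columns named by sample title. HISAT2 2.0.4 and the build Rnor_6.0 are named in the submitters' processing notes. The counter, annotation release and use of strand were not given in the sources used here, and antisense reads may therefore be counted with a gene. Groups came from the titles. Nothing in the labels says how the numbers pair grafts with controls, and no batch is named, so the fit is unpaired and p-values measure the spread between these samples.

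The tests used edgeR 4.0.16 under R 4.3.3: filterByExpr (minimum count 10) left 15464 of 37209 rows with 99.1% to 99.9% of the counts, TMM scaling, glmQLFit and glmQLFTest, and Benjamini-Hochberg adjustment over all genes tested. Standard errors are the absolute log2 fold change over the square root of F. CPM use TMM-scaled library sizes. Under library totals alone the all-gene median was 0.23 on the log2 scale instead of 0.01, so changes are relative to the TMM scale. Alternatives were DESeq2 1.42.0, limma 3.58.1 (voom), other scalings, no filter, a replicate block, and libraries left out. The procedure was tested on simulated counts. Values by library are given for called members with at least 20 CPM in the higher group, the most counted member of each family and called members with a log2 change of at least 3; other members are given by means or counts, and values by library outside this rule (Col2a1, Col4a3, Col24a1) were chosen after they were seen. Of each pathway list, the 2 genes with the smallest p are named. Members, families and lists were chosen with earlier results of these data known.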

Additional observations from a re-analysis of the deposited data

Results flagged for a closer look

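In each group of 4 libraries the highest and the lowest value of each tested collagen gene was set against the others, and a value was marked where its gap to the nearest library passed Dixon's 95% limit for 4 values, as a part of the whole range of the group. Of 78 groups 5 held such a value, and about 1 in 20 groups gives one by chance. Col4a6 stood at 25.9 CPM in graft 2, far above the other grafts. Col6a5 also stood apart in graft 2, at 7.36 CPM. Col6a6 stood at 422 CPM and Col17a1 at 6.97 CPM in control 1, both above the other controls. Col8a2 stood at 15.3 CPM in control 2, below the other controls.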

How the results depend on the processing

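Collagen genes called higher numbered 17, and 19, 19, 18, 17, 12 and 18 with library totals, DESeq2, upper-quartile factors, no filter, controls 3 and 4 left out and limma voom. Those called lower numbered 13, and 11, 13, 12, 13, 9 and 11. With 1 library left out, 12 to 19 rose and 8 to 10 fell, with the 8 reached without control 4, graft 3 or graft 4, in fits with fewer samples. All genes called numbered 6538, and 4778 to 7840 over these settings. With the title number as a replicate block 16 collagen genes rose and 12 fell, and Col4a1, Col4a2 and Col9a3 missed the threshold (adjusted p = 0.0527, 0.0679 and 0.0658). Deviations of same-numbered libraries from their group means had correlations of -0.07, 0.18, 0.07 and 0.05. Those of differently numbered libraries ran from -0.25 to 0.15, so the correlations cannot decide which libraries are pairs. The numbers are not read as pairs because the labels do not say how they pair. Of genes not called, Col7a1 turned sign without control 4 (-0.03), graft 3 (-0.51) or controls 3 and 4 (-0.28) and by limma voom (-0.15), Col22a1 without control 1 (-0.0016), and Col2a1 without control 3 (0.40) or controls 3 and 4 (3.24); the cause was not tested. With 1 library left out their log2 changes ran from -0.51 to 0.62, -0.0016 to 0.57 and -2.27 to 0.40. No chain ratio whose groups were apart changed sign without controls 3 and 4. Depth limits statements on the 5 genes under the filter.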

Other observations

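Receptors that bind collagen moved both ways: of 9 tested, 4 rose, 2 fell and 3 missed the threshold, and the median log2 change was 0.07 against 0.01 over all genes, of which 42.3% were called. Ddr2, a kinase receptor for fibrillar collagens, went from 1113 to 367 CPM and fell by 1.60 (SE 0.18) on the log2 scale, with an edgeR adjusted p of 0.00015. Itga1, the integrin chain that binds type IV collagen, went from 1934 to 687 CPM and fell by 1.49 (SE 0.19) on the log2 scale, with an edgeR adjusted p of 0.000257. The summed level of all 9 receptors, 2535 to 3473 CPM in the controls, was 907 to 1322 CPM in the grafts. Itga1 and Ddr2 make up most of this sum, so it does not describe the 4 that rose. Named after their values were seen, Itga10 went from 0.902 to 7.61 CPM and Itga11, an integrin chain for type I collagen, from 2.94 to 19.8 CPM, both called higher.

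Of 11 tested genes of proteins that bind fibrils, 3 rose, 2 fell and 6 missed the threshold, at a median of 0.11, so the share called, 5 of 11, was near the 42.3% over all genes. Postn, periostin, which links collagen fibrils to other matrix, went from 1134 to 4894 CPM (a log2 change of 2.11, SE 0.29, edgeR adjusted p of 0.000455) and Fn1, fibronectin, on which new fibrils assemble, from 3650.4 to 11906 CPM (a log2 change of 1.71, SE 0.27, edgeR adjusted p of 0.000969).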
